A study of Mus musculus with 2 samples.

Results

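The Myc and ribosome biogenesis genes described here are 37 genes of the MYC network, of nucleolar rRNA processing and of RNA polymerase I, chosen by symbol, among 20738 genes with a named probe on the array. All probes annotated with one of these symbols were taken, which gave 52 probes on 62 spots, and 51 of these probes, covering 36 genes, lay above the detection floor on both arrays. The remaining gene, Mxi1, lay below it on both. The choice of the genes used no measured value of these arrays, but it was made with earlier results of the same data known.

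Expression was measured on 1-colour (Cy3) mouse arrays in cultures of CD4 T helper cells from C57BL/6 spleen, with 1 culture labelled as wild type for Gfi1, which encodes a zinc-finger repressor of transcription, and 1 labelled as knockout. The allele of the knockout, the number of animals behind a culture and their age are not given in the sources used here. Both groups had been stimulated for 2 days through the T cell receptor, by an antibody to its beta chain at 3 µg/ml, and through CD28, by an antibody at 1 µg/ml. The medium of both held IL-2 at 10 ng/ml and blocking antibodies, at 5 µg/ml each, to IL-4 and to IFN-γ. The series' title puts Gfi1 against induction of T helper 1 genes. Since there was 1 array for each genotype, there is no spread between cultures, no test and no p-value, and the differences below describe these libraries.

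MYC is a transcription factor that binds DNA as a pair with MAX, at the E-box sequence CACGTG, and it is induced when T cells are activated through their receptor. MXD and MNT proteins also pair with MAX and repress from the same sites. Ribosome biogenesis, a large set of MYC targets, starts in the nucleolus, where RNA polymerase I makes the rRNA precursor and snoRNPs and processing factors modify, cut and assemble it into the small and large ribosomal subunits.

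Differences are given as log2 values, knockout label minus wild-type label, after each array's 75th percentile over probes (263 units for wild type and 269 units for knockout by label) had been subtracted, so that equal raw signals give -0.03. Signals are in the authors' linear intensity units. A probe counted as detected above the array's median over probes, at 14.2 and 14.6 units, which is a convention, since background flags were not used here. Where a gene has several probes, its signal is their geometric mean and its difference their mean with the SD over probes. Repeated spots give the noise of 1 spot, and for probes with 10 spots the SD of their differences had a median of 0.11 at 50 to 500 units, 0.05 at 500 to 5000 units and 0.04 above 5000 units. This SD covers spotting noise within an array only, and fewer cells of a type cannot be told apart from less RNA per cell.

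The labels and the cells were checked first. Gfi1 itself read 4260 units under the wild-type label and 18100 units under the knockout label, which runs against the labels if its single probe lies inside the deleted part. Where that probe lies was not tested, so the libraries keep their labels as names and every direction rests on them. The defining T cell genes Cd3e (20900 and 15900 units) and Cd4 (2319 and 2146 units) were detected under both labels, as were all 11 CD4 T cell markers with a named probe, with a summed signal of 273106 and 256079 units. Of these 11 markers 8 were lower under the knockout label and 3 higher, and their median difference was -0.21. Of CD8 T and NK cell markers, 10 of 10 were higher under the knockout label, with a summed signal of 383 against 1206 units, and 4 of them, among them Cd8a, lay below the floor under the wild-type label. Those 4 were detected under the knockout label only, so they could only come out higher. Of all detected genes 58.4% were lower and 41.6% higher. B cell markers summed to 527 and 1135 units over 7 detected of 8, of which Ms4a1 (18.9 and 221 units) and Blnk (30.6 and 386 units) made up most of the gap, while Cd79b read 281 and 256 units. Myeloid markers summed to 348 and 670 units over 6 of 10, the gap being that of Mpeg1 (11.7 and 335 units), and the list's median difference was 0.01. Erythroid markers summed to 524 and 419 units over 4 of 5. Xist, expressed from the inactive X chromosome of females, read 447 and 3.86 units, and the Y-linked Eif2s3y 2.91 and 3870 units, so that sex-linked readings and genotype label cannot be told apart. The part of these readings in the results below was not tested.

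Most of the 36 detected genes were slightly lower under the knockout label, while Myc and Mxd1 were higher. Of the 36 genes 33 were lower and 3 higher, whereas of all 13411 detected genes 58.4% were lower and 41.6% higher. Of the 6831 genes with 500 units or more on either array, 63.4% were lower and 36.6% higher. With cyclic loess between the arrays the 36 genes split into 27 lower and 9 higher, against 47.6% lower among all genes. The median difference of the 36 genes was -0.14, beside -0.05 for all detected genes and -0.06 for those that reached 500 units. The median of -0.14 lay between the lower and upper quartiles of all genes, at -0.20 and 0.14.

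Sizes were small throughout. At 2-fold, 0 of the 36 genes were higher and 0 lower, where 3.62% of all genes were higher and 1.52% lower. At 1.5-fold 1 gene, Mxd1, was higher (7.67% of all genes) and 1 gene, Mxd4, was lower (4.25% of all genes). The smallest size counted was a signal at least 25% higher, or at least 20% lower, which is the same ratio in the other direction. By this measure 2 genes were higher, Myc and Mxd1, against 14.1% of all genes. On the lower side 7 genes passed it, against 12.6% of all genes, namely Mxd4, Ncl, Wdr12, Pes1, Utp20, Ubtf and Rrp12. Among genes that reached 500 units, 8.99% were at least 25% higher and 7.1% at least 20% lower, and of the 34 such genes of the set 2 were higher and 6 lower. Against the noise of spots, 23 of the 36 genes (63.9%) were lower, and 2 (5.56%) higher, by at least 2 times the median SD over spots at the gene's signal. For a gene with several probes this signal was their mean, so the limit leaves out disagreement between probes, which was wide for Ncl and Mxd4. The count is given for the reported setting only. Many genes pass this limit, which holds no variation between cultures: 30.3% of all detected genes were lower and 20.1% higher by as much, and 42.6% and 22.7% of those that reached 500 units.

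**Figure D1:**
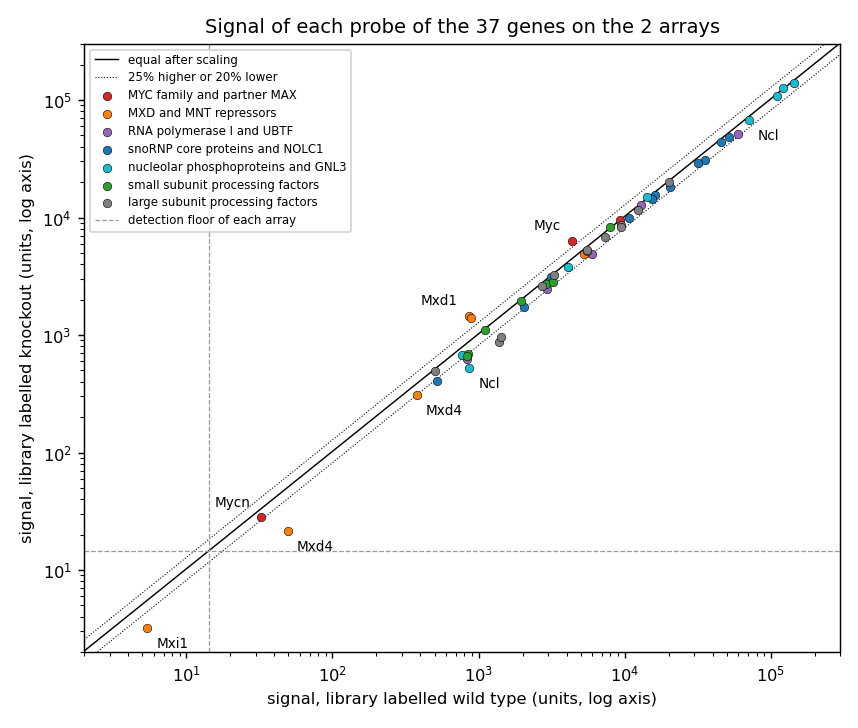
Signal of each of the 52 probes of the 37 genes under the wild-type label (x axis) and the knockout label (y axis), both in intensity units on log axes, coloured by role. The solid line marks equality after scaling, the dotted lines 25% higher and 20% lower, and the dashed lines the detection floors; the Myc and Mxd1 points lie above the band, while Mxi1 lies under both floors.

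Myc was among the 3 genes that were higher. Its single probe is printed on 2 spots, which read 4300 and 4370 units under the wild-type label and 6010 and 6560 units under the knockout label. Both spots were therefore higher under the knockout label, and the ranges of the spots did not overlap. The difference was 0.50 ± 0.07 (SD over 2 spots), or 1.42-fold, and it stayed between 0.49 and 0.56 in all 15 processing settings. With 1 bright probe, the settings on floors and on the choice among probes could not change it. Mycn, the paralogue best known from neural tissue, was dim, at 32.5 and 28.0 units, and its difference of -0.25 was smaller than the median SD of 0.35 over spots at 15 to 50 units. Max, the partner of MYC and of its antagonists, read 9290 and 9450 units (-0.01, and above 0 without scaling, with quantile normalization and with cyclic loess, at up to 0.05).

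The repressive partners of MAX did not share a direction. Mxd1, which encodes the antagonist MAD1, read 858 and 881 units by its 2 probes under the wild-type label and 1450 and 1400 units under the knockout label. Both probes were higher, by 0.72 and 0.64, giving 0.68 ± 0.06 (SD over 2 probes), or 1.60-fold, the highest difference of the set. Mxd4, a related antagonist, had the lowest value as reported, -0.78 ± 0.65 (SD over 2 probes), but not in every setting. With the brightest probe alone it stood at -0.32 and Pes1 was lowest at -0.70, while under a higher floor, each array's 75th percentile, Mxd4 again stood at -0.32 and Ncl was lowest at -0.44. Its probes were far apart, since one read 379 and 310 units (-0.32) and the other, close to the floor, read 49.6 and 21.5 units (-1.24). Mnt, a widely expressed antagonist, read 5280 and 4910 units (-0.14). Mxi1, the remaining antagonist, read 5.42 and 3.23 units, both below the floor, so no difference is given.

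Promoter sequences are shown because MYC and its antagonists bind the same E-box, so that the letters can be read beside the differences. RefSeq windows from 250 bases before to 50 bases after a start site (build GRCm38.p6) matched 31 of the 37 genes, in 40 windows; the others are Bop1, Fbl, Myc, Npm1, Rrp12 and Rrs1. The windows of the E-box genes with the lowest differences (Mxd4, Pes1 and Utp20), of Nop2, which holds an E-box and stood near 0, and of Mxd1, the highest gene, are printed with CACGTG in capitals:
Mxd4, chr5:34187661-34187960, minus strand: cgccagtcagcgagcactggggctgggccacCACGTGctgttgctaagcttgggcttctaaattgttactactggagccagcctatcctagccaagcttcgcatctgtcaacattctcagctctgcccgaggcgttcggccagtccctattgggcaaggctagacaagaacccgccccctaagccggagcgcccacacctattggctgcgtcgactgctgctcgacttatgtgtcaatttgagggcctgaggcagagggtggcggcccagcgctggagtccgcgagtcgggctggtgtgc
Pes1, chr11:3963725-3964024, plus strand: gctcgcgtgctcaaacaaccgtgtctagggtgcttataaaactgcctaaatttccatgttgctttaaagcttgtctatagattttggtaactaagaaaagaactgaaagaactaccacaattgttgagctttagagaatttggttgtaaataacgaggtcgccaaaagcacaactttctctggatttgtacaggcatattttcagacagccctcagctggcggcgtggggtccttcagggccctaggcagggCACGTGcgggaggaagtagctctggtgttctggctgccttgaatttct
Utp20, chr10:88826765-88827064, minus strand: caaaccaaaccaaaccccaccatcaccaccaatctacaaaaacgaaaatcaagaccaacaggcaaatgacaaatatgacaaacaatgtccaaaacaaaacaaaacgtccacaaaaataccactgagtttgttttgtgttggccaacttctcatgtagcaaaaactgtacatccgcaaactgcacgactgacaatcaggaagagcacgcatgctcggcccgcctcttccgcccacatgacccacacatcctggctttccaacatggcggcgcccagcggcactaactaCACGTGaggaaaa
Nop2, chr6:125131633-125131932, plus strand: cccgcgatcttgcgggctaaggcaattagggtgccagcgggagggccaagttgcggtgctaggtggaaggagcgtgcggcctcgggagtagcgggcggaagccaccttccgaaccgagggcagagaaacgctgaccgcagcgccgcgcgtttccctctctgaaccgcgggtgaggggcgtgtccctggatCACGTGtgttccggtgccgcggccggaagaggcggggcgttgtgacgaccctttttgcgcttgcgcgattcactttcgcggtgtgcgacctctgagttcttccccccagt
Mxd1, chr6:86669110-86669409, minus strand: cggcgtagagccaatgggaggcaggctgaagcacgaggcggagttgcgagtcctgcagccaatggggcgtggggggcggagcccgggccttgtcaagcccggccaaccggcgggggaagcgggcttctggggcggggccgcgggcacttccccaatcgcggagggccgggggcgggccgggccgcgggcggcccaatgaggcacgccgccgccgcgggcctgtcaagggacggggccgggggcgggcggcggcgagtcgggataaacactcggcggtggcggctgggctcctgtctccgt

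The E-box CACGTG, which reads the same on both strands, occurred in a window of 7 of the 31 genes (22.6%), namely Max, Mnt, Mxd4, Nop2, Pes1, Tsr1 and Utp20. Over all 27025 genes with a window the share was 8.09%, and over the 5516 that reached 500 units it was 12.9%. Counted from the start site at 0, the first base of the match lay at -219 in Mxd4, -60 in Nop2, 2 in Pes1 and 37 in Utp20. The 7 genes with the match had a median difference of -0.17 and ranged from -0.78 (Mxd4) to -0.01 (Max). The 23 detected genes without it had a median of -0.15 and ranged from -0.44 (Ncl) to 0.68 (Mxd1). The ranges of the groups overlapped, and the printed windows hold an E-box both in Mxd4, the lowest gene as reported, and in Nop2, which stood near 0.

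Other motifs were searched on both strands, each on its own with overlaps allowed. The ETS-type sequence CCGGAAGT was found in 4 of the 31 genes (12.9%), Gar1, Nhp2, Polr1c and Tsr1, against 4.31% of all genes and 11.2% of those that reached 500 units. The CCAAT box was found in 10 of them (32.3%), against 41.1% and 43.2%. AAATCAC, the core of the sequence known to be bound by GFI1, was found in 0 of the 31, against 3.64% and 2.37%. A match or its lack describes these letters in these windows only.

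Genes of RNA polymerase I, which transcribes the rRNA precursor, were all lower under the knockout label, as were 58.4% of all detected genes. The signal of Polr1a, the largest subunit, was 5950 units under the wild-type label and 4890 units under the knockout label (-0.32). Polr1b, which encodes the other large catalytic subunit, read 2920 and 2460 units (-0.28). Both differences exceeded the median spot SDs of 0.04 and 0.05 at these signals. Polr1c, a subunit shared with RNA polymerase III, is printed on 10 spots, which gives its own measure of spotting noise. Its spots read 11600 to 14200 units (median 12850) under the wild-type label and 11400 to 13900 units (median 12600) under the knockout label. These ranges overlap almost wholly, although the difference taken spot by spot was below 0 on 10 of 10 spots, at -0.06 ± 0.02 (SD over 10 spots). That is about the median of all genes. Ubtf, the HMG-box factor bound along transcribed rDNA, stood at -0.34 ± 0.16 (SD over 2 probes), with probes that read 59300 and 51900 units (-0.22) and 834 and 626 units (-0.45). The 4 genes had a median of -0.30, which stayed between -0.31 and -0.23 over the 15 settings.

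Proteins of the small nucleolar RNPs, which modify rRNA, were lower in 8 of 8 cases (7 of 8 without scaling, with quantile normalization or with cyclic loess), and their median was -0.14. Beside them 58.4% of all detected genes were lower. In the box C/D particle, Fbl encodes the methyltransferase fibrillarin and read 16200 and 15600 units (-0.09). Its scaffold partners Nop56 and Nop58 stood at -0.12 ± 0.05 (SD over 3 probes) and -0.15, the latter at 15500 and 14300 units. Rrp9, a protein of the U3 particle, read 3110 units under both labels, so that its -0.03 is the scaling alone, and it was at 0.01 with quantile normalization and 0.03 with cyclic loess. In the box H/ACA particle Dkc1, the pseudouridine synthase dyskerin, read 2040 and 1730 units (-0.27). Dkc1 lies on chromosome X, and the X-linked Xist differed between the libraries as given above. The H/ACA proteins Gar1, at 35500 and 31000 units, and Nhp2, at 51600 and 48400 units, stood at -0.23 and -0.12. Nolc1, a chaperone of both particles, had probes at -0.19 (20300 and 18200 units) and -0.41 (523 and 403 units), with a mean of -0.30 ± 0.15 (SD over 2 probes).

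The nucleolar phosphoproteins differed in size. Ncl, which encodes nucleolin, had the largest difference of the nucleolar genes, -0.44 ± 0.47 (SD over 2 probes), but its probes disagreed. One read 70800 and 67300 units (-0.11) and the other 865 and 519 units (-0.77), and by the first alone the gene stood at -0.11. Npm1, nucleophosmin, was level, with 4 probes between -0.08 and 0.03 and a mean of -0.02 ± 0.05 (SD over 4 probes) that was above 0 without scaling, with quantile normalization and with cyclic loess, at up to 0.02. Npm3, its smaller relative, read 776 and 677 units (-0.23). Gnl3, the nucleolar GTPase nucleostemin, read 4110 and 3800 units (-0.15).

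Small subunit factors were lower in 5 of 6 cases, in 4 of 6 without scaling and in 3 of 6 with cyclic loess. For all detected genes the shares lower were 58.4%, 52.7% without scaling and 47.6% with cyclic loess. Utp20, a large scaffold protein of the processome, read 837 and 666 units (-0.36), and Rrp12, a factor of subunit maturation and export, 841 and 683 units (-0.33). These are the lowest of the group, each by 1 probe. Tsr1, a GTPase-like factor of late maturation, stood at -0.17 ± 0.09 (SD over 2 probes). Nop14, a processome member, read 1950 and 1930 units (-0.05). Nob1, the nuclease that trims the end of the small-subunit rRNA, read 1100 units under both labels (-0.03). Bysl, a factor of early small-subunit assembly, was the remaining gene above 0, at 7910 and 8320 units (0.04), which is about the median SD over spots.

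Large subunit factors were lower in 8 of 8 cases, and in 7 of 8 without scaling, with quantile normalization or with cyclic loess, where Nop2 lay above 0. As reported, 58.4% of all detected genes were lower. The complex of PES1, BOP1 and WDR12 is needed for processing of the large-subunit rRNA, and its genes were all lower. Wdr12 stood at -0.40 ± 0.27 (SD over 2 probes), with probes at 9380 and 8290 units (-0.21) and at 1430 and 967 units (-0.60). Pes1 stood at -0.38 ± 0.45 (SD over 2 probes), with probes at 506 and 496 units (-0.06) and at 1390 and 876 units (-0.70). Bop1 read 9450 and 8650 units (-0.16) by its only probe. The complex therefore held the largest differences of the group and also the largest disagreement between probes. Ddx18 and Ddx21, DEAD-box RNA helicases, stood at -0.13 and -0.08, each by 2 probes less than 0.1 apart. Nop16 read 5560 and 5250 units (-0.12), and Rrs1, a factor of early large-subunit assembly, 2730 and 2620 units (-0.09). The rRNA methyltransferase gene Nop2 was level, at 20000 and 20100 units (-0.03).

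**Figure D2:**
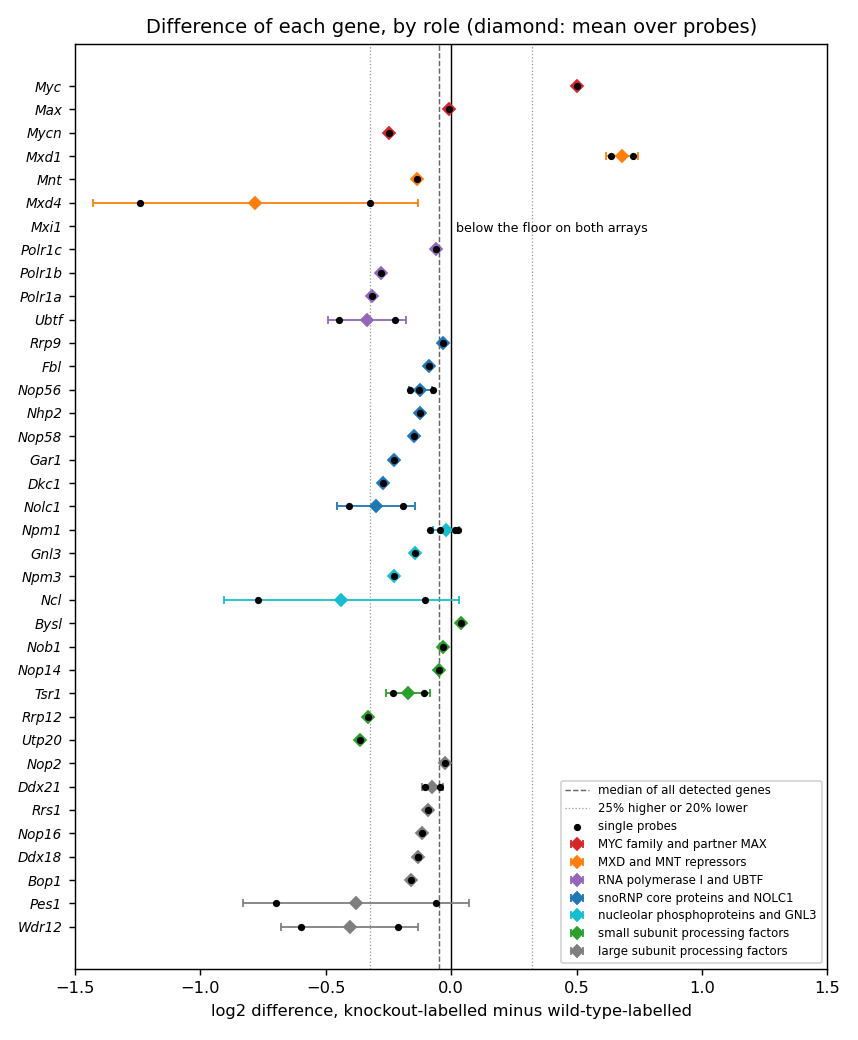
Log2 difference (x axis, knockout label minus wild-type label) of each gene, grouped by role; diamonds are means over probes, bars the SD over probes where there are several, and black points single probes. Myc and Mxd1 lie right of the dotted line at 25% higher and 29 of the 30 nucleolar and RNA polymerase I genes lie left of 0 (24 of 30 with cyclic loess). Of all detected genes 58.4% were below 0 (47.6% with cyclic loess). Mxd4, Ncl, Pes1 and Wdr12 have widely spaced probes.

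Agreement between probes set the precision for single genes. Of the 12 genes with several probes 11 had all of them on the same side of 0, the exception being Npm1. The probes of 6 genes lay within 0.2 of each other, and those of the other 6 (Nolc1, Ubtf, Wdr12, Pes1, Ncl and Mxd4) were 0.22 to 0.92 apart. Those 6 include 5 of the 7 genes that were at least 20% lower. As reported, 19.4% of the 36 genes were at least 20% lower. With only the brightest probe of each gene they were 4 (11.1%, against 12.5% of all genes), and with cyclic loess 3 (8.33%, against 9.28%). In both settings the share was no higher than that of all detected genes, which include more dim genes. Shares among genes that reached 500 units were not computed in these settings. In the reported setting that share was 17.6% of 34 genes of the set, against 7.1% of all such genes. The genes Max, Fbl, Nop14, Bysl and Bop1 had no probe at or below feature number 50000, and spots above it were left out as an alternative. Without such spots 29 of 31 genes were lower, with a median of -0.15.

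The nucleolar and RNA polymerase I genes without the MYC network gave the same picture at a slightly larger median. Among these 30 genes, 29 lay below 0 (96.7%, against 58.4% of all detected genes) and 1 above, and the median was -0.15. With cyclic loess 24 lay below 0 and 6 above, where 47.6% of all genes lay below 0, and the median was -0.09. Their median was below 0 in all 15 settings, between -0.19 and -0.09. The highest of them was Bysl, so that Myc and Mxd1 both lay above all 30.

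Further genes of the same pathways, from lists written by function, were lower to a smaller extent. Over 7 lists 210 of 213 genes were detected, of which 162 lay below 0 (77.1%, against 58.4% of all detected genes) and 48 above, and the median was -0.11. With cyclic loess 130 were lower and 80 higher, at -0.05. At least 20% lower were 19 genes and at least 25% higher 7; past 1.5-fold there was 1 gene each way, and past 2-fold 0. The shares of 9.05% and 3.33% at the smallest size were below those of all detected genes, 12.6% and 14.1%, which include more dim genes. Among genes that reached 500 units, 14 of 175 list genes (8%) were at least 20% lower, against 7.1% of all such genes. At least 25% higher were 5 of the 175 (2.86%), against 8.99%. In the 5 lists of ribosome biogenesis 116 of 145 detected genes were lower (80%, against 58.4% of all detected genes) and 29 higher. With cyclic loess 89 were lower and 56 higher, where 47.6% of all genes were lower. Among them, small subunit processome genes were lower in 36 of 46 cases (median -0.09), large subunit assembly genes in 39 of 49 (-0.13), snoRNP and rRNA modification genes in 14 of 17 (-0.13), RNA polymerase I genes in 15 of 18 (-0.10), and exosome and rRNA end-processing genes in 12 of 15 (-0.09).

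Among the further lists, the widest range from lowest to highest gene lay in MYC targets outside the nucleolus. Here 34 of 47 genes were lower (72.3%, against 58.4% of all detected genes) and 13 higher, the median being -0.11, over a range from -0.71 to 0.66. The quartiles of these 47 genes were -0.20 and 0.01, so the width of the range rests on its outer genes. Tert, the catalytic subunit of telomerase, was the lowest, at 187 and 117 units (-0.71). Hk2, hexokinase of glycolysis, was the highest, at 1570 and 2530 units (0.66). Each was read by 1 probe on a spot above feature number 50000. At least 25% higher were 5 of the 47 genes (10.6%, against 14.1% of all detected genes). At least 20% lower were 4 (8.51%, against 12.6%). The others past 25% higher or 20% lower, chosen after their values were seen, were Cdkn1a (0.51 ± 0.47, SD over 3 probes), Mthfd2 (0.47), Eif4ebp1 (0.38) and Ccnd2 (0.34) on the higher side and Nme1 (-0.38 ± 0.09, SD over 2 probes), Gpx1 (-0.36) and Apex1 (-0.33) on the lower side. Other MYC and MLX network genes, such as cofactors and ubiquitin ligases of MYC, were lower in 12 of 18 cases (66.7%, against 58.4% of all detected genes), with a median of -0.12. Of the 18, 0 were at least 25% higher (14.1% of all genes) and 2 at least 20% lower (11.1%, against 12.6% of all genes).

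**Figure D3:**
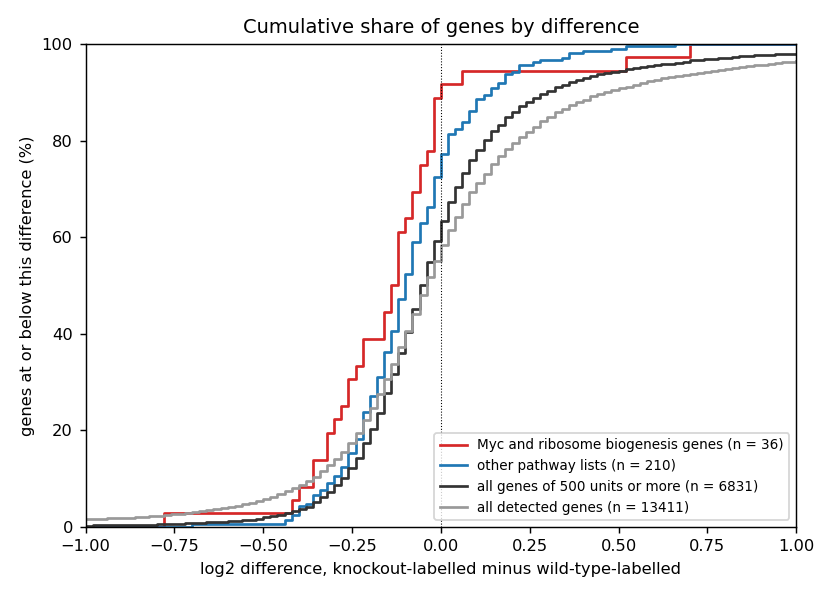
Percent of genes (y axis) at or below each log2 difference (x axis, knockout label minus wild-type label) for the 36 detected Myc and ribosome biogenesis genes, the 210 genes of the other pathway lists, the 6831 genes of 500 units or more and all 13411 detected genes. At 0 the curves stand at 91.7%, 77.1%, 63.4% and 58.4%; with cyclic loess 27 of the 36 genes were below 0.

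The offset from all genes kept its sign over the 15 settings. Scaling to the median or not scaling could not change it, because either shifts the set and all genes alike. The median of the 36 genes ran from -0.15 to -0.08 and lay 0.07 to 0.18 below the median of all genes that entered, with the widest gap without a floor. The direction of 30 of the 36 genes was the same in every setting, and Max, Npm1, Nop2, Nop14, Rrp9 and Nob1, all within 0.05 of 0, crossed 0 in at least 1 setting.

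**Figure D4:**
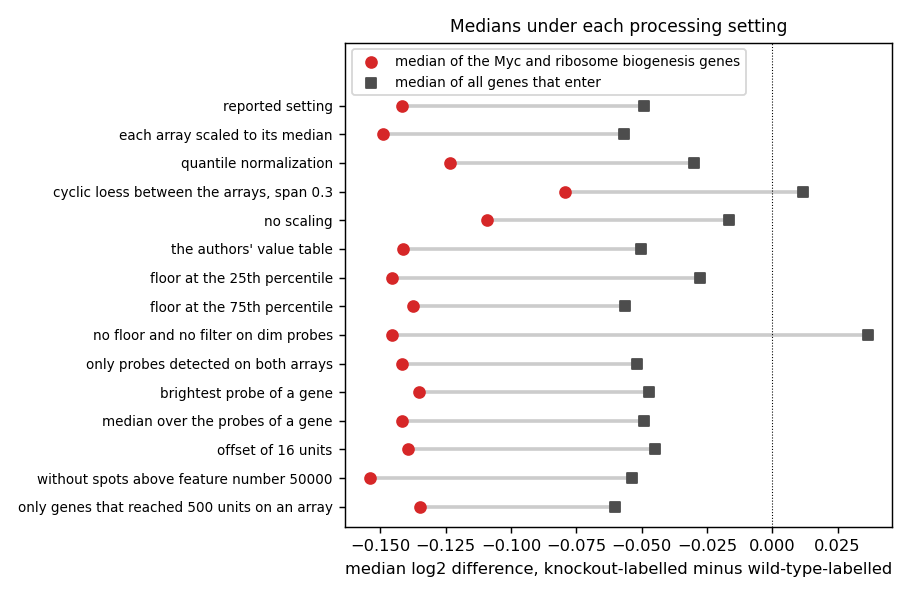
Median log2 difference (x axis, knockout label minus wild-type label) of the Myc and ribosome biogenesis genes (circles) and of all genes that entered (squares) under each of the 15 processing settings. The circles lie left of the squares in every setting, by 0.09 in the reported one; the squares pass 0 with cyclic loess (0.01) and without a floor (0.04).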

How the data were processed

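The authors' deposited intensity of each spot, under a column headed as raw, was used for 1 array of each genotype label; Agilent Feature Extraction 11.5.1.1 is named per the submitters' processing notes. No source used here states the background correction. The labels' protocols give 100 ng of total RNA. Each array had 59305 spots of 55681 probes. Signals were put on the log2 scale, averaged per probe and scaled to the 75th percentile. Probes above the array's median on at least 1 array (29363) entered, an undetected side being set to the floor, and a gene's difference is the mean over its probes. Symbols came from the platform annotation, updated through RefSeq of GRCm38.p6, which left the spots of the 37 genes as they were. Phb1, Polr1f, Polr1g and Polr1h were matched under the older names Phb, Twistnb, Cd3eap and Znrd1. Genes, lists and alternatives were chosen with earlier results of these data known. Named were all 37 genes, Gfi1, Cd3e, Cd4 and, of each other list, up to 3 genes each way past 1.5-fold; Xist, Eif2s3y, Cd8a, Ms4a1, Blnk, Cd79b, Mpeg1 and the genes marked so in the text were picked with their values in view. Alternatives concerned scaling, the authors' value table, floors, probes, an offset and late-numbered spots. The number of arrays limits the precision. The steps were also run on simulated data with known differences. Neither the sizes of those differences nor the error allowed is given here. That run is therefore no measure of accuracy for differences as small as those of most genes above. Python 3.11.15 was used, with matplotlib 3.10.9, numpy 2.4.6, statsmodels 0.14.6 and pandas 2.3.3.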

Additional observations from a re-analysis of the deposited data

How the results depend on the processing

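The median of the 36 genes stayed below 0 under all 14 alternatives, and 13 of these alternatives were listed in advance while restriction to genes that reached 500 units was chosen after seeing the data. The number of higher genes, 3 as reported, was 7 with quantile normalization, 9 with cyclic loess and 6 without scaling. The 7 genes at least 20% lower (19.4%, against 12.6% of all genes) became 3 with cyclic loess (8.33%, against 9.28%) and 4 with the brightest probe (11.1%, against 12.5%). The single gene lower by 1.5-fold, Mxd4, became 0 genes with a floor at the 75th percentile, with an offset of 16 units and among genes that reached 500 units, and 2 genes, with Mxi1, without a floor. With the brightest probe the single gene was Pes1 in place of Mxd4. The cause was not tested, except that Mxi1 is below the reported floor and enters without one or with one at the 25th percentile. Counts at 2-fold were 0 in both directions in every setting. Of 496 values of single genes under the alternatives, 488 moved by less than 0.10, the median SD between probes of a gene, and 8 by more. Many of these values had little room to move, so the count is no measure of stability. For the 25 genes with 1 probe, a choice among probes changes nothing. Scaling by a single value per array shifts all genes alike. Signals near the floor limit Mycn, Mxi1 and the dimmer Mxd4 probe. No paired analysis was possible because each genotype label has 1 array.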

Other observations

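Gene products that act in one complex were compared side by side, as values with no explanation. The box C/D proteins Fbl, Nop56 and Nop58 lay within 0.06 of each other, between -0.15 and -0.09. The catalytic RNA polymerase I subunits Polr1a and Polr1b lay at -0.32 and -0.28, while Polr1c, shared with RNA polymerase III, lay at -0.06. Of the 18 further RNA polymerase I genes detected, 2 were at least 20% lower (11.1%, against 12.6% of all detected genes). They were Cd3eap (1080 and 816 units, -0.44) and Polr2e (-0.36 ± 0.05, SD over 2 probes), both chosen after their values were seen.

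Among large subunit assembly genes Mdn1, which encodes the ATPase midasin, was the lowest at -0.45 ± 0.003 (SD over 2 probes), from 360.4 to 269.2 units. In the further lists of ribosome biogenesis 2 of 145 genes were at least 25% higher (1.38%, against 14.1% of all detected genes). They were the kinase gene Riok2 (0.35) and the snoRNP assembly factor gene Nufip1 (0.35). These genes were also chosen after their values were seen, and each of the latter pair was read by 1 probe.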
